A study of Mus musculus with 2 samples.

Results

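The metallothionein genes Mt1, Mt2 and Mt3 are 3 of the 20451 genes in 2 raw count tables of mouse thymus cells. They were taken by name, and Mt3, a gene known from brain, was included because it stood high among the genes of type 1 conventional dendritic cells (cDC1). Its level in those cells is therefore given as a description, with no test. Metallothioneins are small cytoplasmic proteins whose many cysteines bind zinc and copper. Mt1 and Mt2 are made in most tissues: the zinc sensor MTF1 switches them on through metal response elements, and glucocorticoids and IL-6 acting through STAT3 are known inducers. Mt3 was described as a growth inhibitory factor of neurons and responds little to metals.

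Thymus was taken at 7 weeks of age from wild-type animals (B6WT in the labels, here WT) and from Mgl2DTR_eGFP animals (Mgl2DTR) that had been given 500 ng of diphtheria toxin, 48 h in all. The name of the second strain joins Mgl2, a lectin gene of type 2 dendritic cells and some macrophages, to the toxin receptor and a green fluorescent protein. The labels do not say if WT mice received toxin, and they name no animals, so each genotype was 1 pool of cells with no replicate check. Organs were digested with collagenase D at 1 mg/ml, thymocytes bearing CD90.2 were depleted magnetically, and antibodies to CD11c and CD11b guided the sorting of live cells. Both genotypes were run together in droplets of the Chromium 3′ v3 kit with an oligonucleotide hashtag per cell source. The hashtag set has 3 members, the third named only uncategorized, and what it marks is not stated. Without labelled animals there are no replicates to test, and every interval below covers counting error only.

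The cells with exactly 1 hashtag numbered 11586 for WT and 7433 for Mgl2DTR. Their UMIs totalled 116719748 and 71521759, with medians of 7820 and 6930 in a cell. UMIs are counted molecules, and a level is a gene's UMIs among 1000000 UMIs of those cells (CPM). Mgl2 itself stood at 109 CPM over all WT cells and at 17.9 over all Mgl2DTR cells. The cells fell into 46 clusters, of which 22 could be named from marker genes, and 19 were compared between genotypes because both genotypes had at least 50 cells there. Names end in "-like" because they were rebuilt here from markers. T cell-like and NK or ILC-like clusters were also present among the cells sorted with antibodies to CD11c and CD11b. Mt1 summed to 16483 UMIs in WT and 13263 in Mgl2DTR cells, Mt2 to 1592 and 960, and Mt3 to 6065 and 3461.

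The 3 genes lie within one stretch of chromosome 8 on the plus strand of mm10 (GENCODE vM21), each with 3 exons: Mt3 at chr8:94152607-94154146, Mt2 at chr8:94172664-94173568 and Mt1 at chr8:94179082-94180327. Their coding sequences are shown because the cysteine codons, in capitals, make up much of each of them and show how alike the counted genes are.
Mt1: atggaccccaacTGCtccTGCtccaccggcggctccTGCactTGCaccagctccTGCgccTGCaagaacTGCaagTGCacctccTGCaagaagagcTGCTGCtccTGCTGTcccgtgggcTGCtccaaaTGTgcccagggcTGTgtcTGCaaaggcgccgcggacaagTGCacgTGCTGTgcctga
Mt2: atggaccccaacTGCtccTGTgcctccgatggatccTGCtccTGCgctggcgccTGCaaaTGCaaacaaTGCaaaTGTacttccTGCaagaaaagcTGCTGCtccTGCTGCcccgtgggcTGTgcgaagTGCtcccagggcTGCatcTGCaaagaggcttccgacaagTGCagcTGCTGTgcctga
Mt3: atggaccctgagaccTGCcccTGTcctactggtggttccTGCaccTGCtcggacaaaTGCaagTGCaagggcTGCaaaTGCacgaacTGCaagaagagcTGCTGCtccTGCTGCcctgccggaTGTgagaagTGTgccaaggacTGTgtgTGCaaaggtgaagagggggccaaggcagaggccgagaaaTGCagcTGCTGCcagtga
Each holds 20 cysteine codons, among 61 codons in Mt1 and Mt2 and 68 in Mt3. Mt1 and Mt2 agreed at 79.6% of aligned coding bases, Mt1 and Mt3 at 68.9%, and Mt2 and Mt3 at 69.2%. Reads of this kit come from transcript ends, where the last 100 bases agreed at 56.5%, 44.8% and 38.5% for the same pairs. The longest run shared within the last 300 bases was 27 bases, between Mt1 and Mt3. No source used here says how reads that fit more than 1 gene were counted.

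Mt3 marked cDC1-like cells. In WT cells its level was 169 CPM (95% interval 163 to 176, 2623 UMIs) in the resting cDC1-like cluster, 125 CPM in cDC1-like cells with Mcm genes of DNA replication, 51.2 CPM in those with histone genes and 27.7 CPM in those with mitotic genes. In Mgl2DTR cells the same clusters stood at 155, 193, 71.3 and 52.1 CPM. The 4 clusters thus held Mt3 in both genotypes, and the mitotic cells held least of it in both. Over all 4 clusters as a whole, Mt3 stood at 105 CPM against 23.6 CPM in all other WT cells. That placed it in position 12 of all genes by the ratio of levels with 10 CPM added to both. The 10 leading genes were Hbb-bs, Xcr1, Ifi205, Naaa, Ppt1, Rab7b, Gcsam, Cd207, Tlr3 and Gpr141b. Hbb-bs is a globin gene of red cells, Xcr1 the chemokine receptor that defines cDC1, Cd207 the lectin langerin, and Tlr3 a sensor of double-stranded RNA. In the resting cluster alone, Mt3 took position 3, behind the globin genes Hbb-bs and Hba-a1.

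Outside cDC1-like cells the WT level of Mt3 lay at or under 29.5 CPM in 14 of 15 compared clusters. The exception was the neutrophil-like cluster with Retnlg at 72.7 CPM, where 80 of 83 UMIs sat in 1 cell. That cell held UMIs of 9 of the 12 cDC1 markers besides 13 of 15 neutrophil markers and was called a doublet. Mt3 stood at 2.49 CPM in T cell-like cells, a lineage not known for it. From the fifth position downward (29.5 CPM in activated cells with Il12b and Ccl5, 27.7 in mitotic cDC1-like cells, 24.3 in cDC2-like cells with Mmp12), the intervals of neighbours in the order overlapped. In activated cells with Ccl17 it stood at 4.64 CPM, in cDC2-like cells with Cd209d at 4.39, and in pDC-like cells at 2.22.

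**Figure D1:**
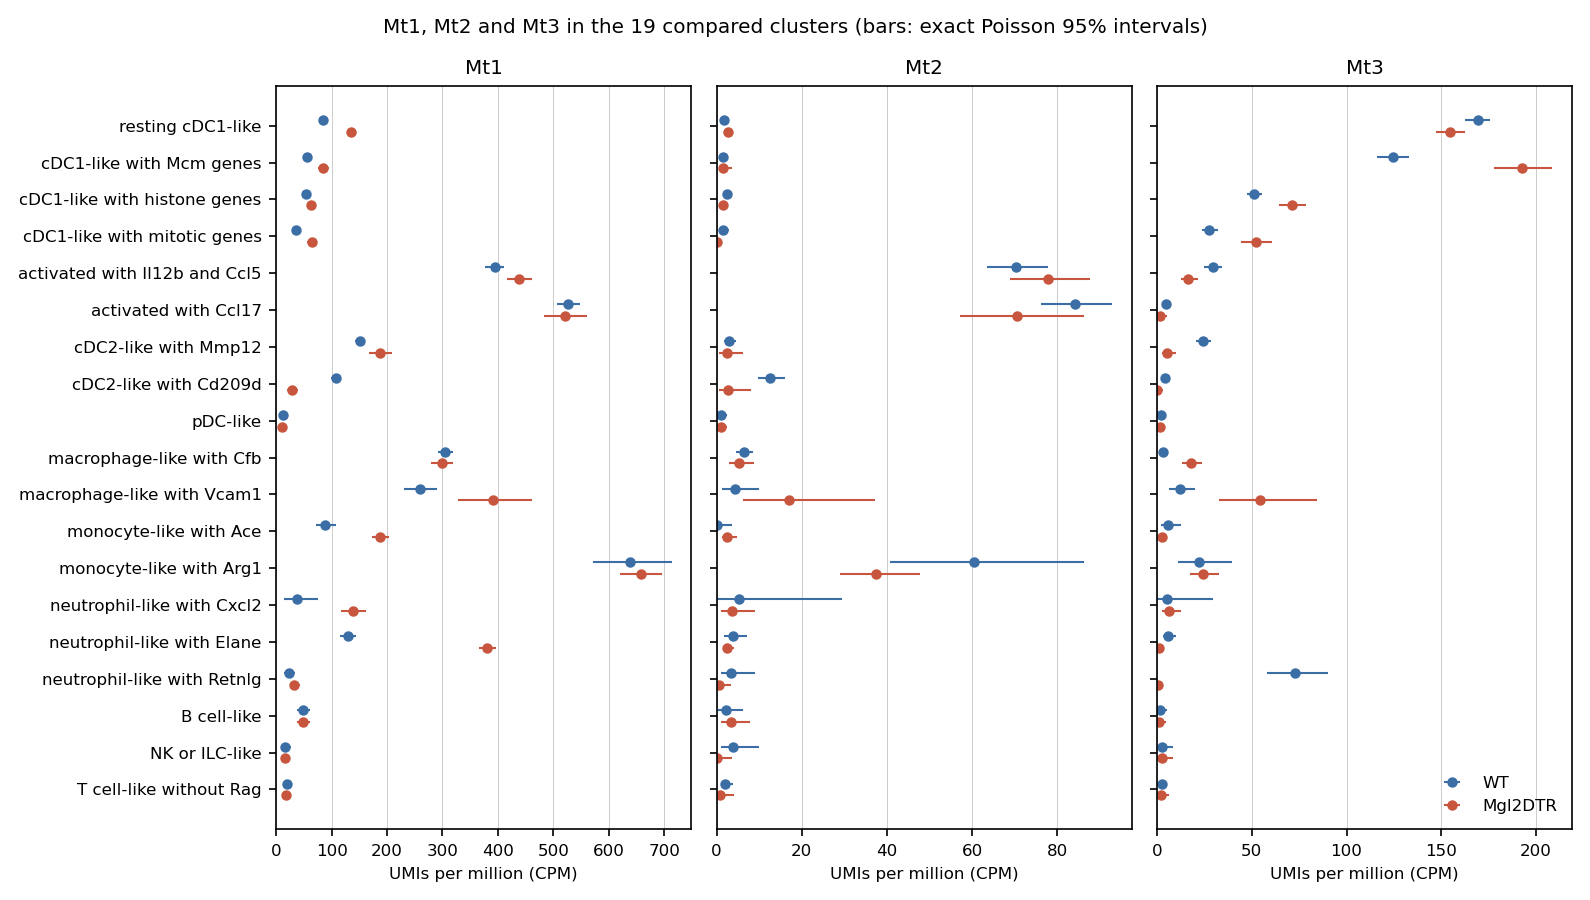
Levels of Mt1, Mt2 and Mt3 in CPM (horizontal axes, linear and different for each gene) in the 19 compared clusters; points are WT and Mgl2DTR cells and bars are exact Poisson 95% intervals. Mt3 is highest in the resting cDC1-like (169 CPM, WT) and Mcm cDC1-like clusters, while Mt1 and Mt2 are highest in activated cells and in monocyte-like cells with Arg1.

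Mt1, the broadly made member, followed another order. It stood at 639 CPM in WT monocyte-like cells with Arg1, 526 in activated cells with Ccl17 and 394 in activated cells with Il12b and Ccl5. It stood at 305 CPM in macrophage-like cells with Cfb and 260 in those with Vcam1. Each of these 5 intervals was clear of the next in the order. All 55 WT cells of the Arg1 cluster were called doublets, so its WT level rests on such cells. Activated cells are dendritic cells with Ccr7 and Fscn1, genes of cells that have matured and move. Below them came cDC2-like cells with Mmp12 at 151 CPM, neutrophil-like cells with Elane at 130, cDC2-like cells with Cd209d at 108, monocyte-like cells with Ace at 88.3 and resting cDC1-like cells at 84.4. Among these 5 each interval overlapped the next in the order. The pDC-like cluster was lowest, at 11.9 CPM, and its interval (9.05 to 15.3) overlapped that of the NK or ILC-like cluster at 16.6 but not that of the T cell-like cluster at 19.9 (16.2 to 24.4).

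Mt2 was concentrated in the same activated clusters. WT levels of Mt2 were 84.1 CPM in activated cells with Ccl17, 70.3 in activated cells with Il12b and Ccl5 and 60.5 in monocyte-like cells with Arg1, and these 3 overlapped in sequence. The cDC2-like cluster with Cd209d followed at 12.6 CPM, and the other 15 clusters stood at or under 6.43 CPM. Mt2 did not keep a constant proportion to Mt1. For every 100 Mt1 UMIs there were 17.8 Mt2 UMIs (95% interval 15.9 to 19.9) in activated cells with Il12b and Ccl5 and 15.98 in those with Ccl17. The same quantity was 1.99 (1.29 to 2.92) in resting cDC1-like cells, 1.90 in cDC2-like cells with Mmp12 and 2.11 in macrophage-like cells with Cfb. The intervals of these 3 clusters lay wholly below those of both activated clusters. Not every other dendritic cluster was low: the cDC2-like cluster with Cd209d had 11.6 (8.82 to 15.1), which overlapped activated cells with Ccl17 (14.3 to 17.8), and the pDC-like cluster had 8.47 (2.65 to 20.9) from 5 Mt2 UMIs. In Mgl2DTR cells it was 17.8 in activated cells with Il12b and Ccl5 and 2.03 in resting cDC1-like cells.

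Over 34 WT clusters with at least 50 cells, named or not, the levels of Mt1 and Mt2 as log2(CPM + 1) had a Pearson r of 0.764, Mt1 and Mt3 one of 0.208, and Mt2 and Mt3 one of 0.0636. These are descriptions across clusters of 1 library. Among 11629 genes with at least 10 CPM in a cluster, the pattern of Mt3 was most like that of Cd207 (r = 0.902), Homer2, Xcr1, Tlr11 and Ifi205 (r = 0.859). The pattern of Mt2 was most like those of Adgrg6 (r = 0.880), Fscn1, Gm10851, Gm10399 and Cacnb3 (r = 0.857), of which Fscn1 and Cacnb3 also mark activated dendritic cells. The pattern of Mt1 was most like those of Kcnk6 (r = 0.857), Anxa4, Vwa5a, Gsto1 and Tnfrsf11a (r = 0.841). These names depend on the clusters: with Mgl2DTR cells, 1 of the 5 stayed for Mt1, 0 for Mt2 and 2 for Mt3.

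The genes beside the metallothioneins on the chromosome stood below Mt1 (84.4 CPM) and Mt3 (169 CPM) in resting cDC1-like WT cells. Bbs2 and Nup93 did not stand below Mt2 (1.68 CPM). Resting cDC1-like WT cells held 1.87 CPM of Bbs2, a gene of the ciliary BBSome on the Mt3 side, and 14.8 CPM of Nup93, a nuclear pore gene on the Mt1 side. Across the compared WT clusters Nup93 ranged from 0 to 26.1 CPM with its highest level in cDC1-like cells with histone genes. Mt4, the metallothionein of stratified epithelium, had 22 UMIs in all WT cells and 15 in all Mgl2DTR cells.

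The 250 bases before the RefSeq start of each gene (GRCm38.p6, plus strand) are shown because the members differ there in metal response elements. Capitals mark the core TGCACNC or TGCGCNC on either strand: chr8:94178839-94179088 for Mt1, chr8:94172368-94172617 for Mt2 and chr8:94152357-94152606 for Mt3.
Mt1: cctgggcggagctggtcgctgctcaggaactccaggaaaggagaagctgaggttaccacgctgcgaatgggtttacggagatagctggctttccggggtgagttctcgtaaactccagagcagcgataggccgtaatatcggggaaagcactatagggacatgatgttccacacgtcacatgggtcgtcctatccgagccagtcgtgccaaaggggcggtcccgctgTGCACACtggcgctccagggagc
Mt2: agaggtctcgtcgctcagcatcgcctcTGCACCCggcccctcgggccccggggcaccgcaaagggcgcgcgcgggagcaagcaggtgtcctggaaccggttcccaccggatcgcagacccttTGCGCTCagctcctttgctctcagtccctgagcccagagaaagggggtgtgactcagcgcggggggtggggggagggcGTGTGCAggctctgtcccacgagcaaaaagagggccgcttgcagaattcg
Mt3: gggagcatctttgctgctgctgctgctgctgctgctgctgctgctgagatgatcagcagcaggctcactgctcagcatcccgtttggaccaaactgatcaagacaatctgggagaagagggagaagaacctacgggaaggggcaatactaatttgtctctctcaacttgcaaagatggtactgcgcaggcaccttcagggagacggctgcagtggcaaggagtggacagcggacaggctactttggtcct
The core was found 1 time in Mt1, 3 times in Mt2 and 0 times in Mt3, and 21.4% of 32851 RefSeq promoters of this length held it at least once. At least 3 matches occurred in 1.26% of promoters. A glucocorticoid response element was matched 94 bases before the start of Mt1 and in 0.387% of promoters. In Mt2 an antioxidant element TGACNNNGC (10.2% of promoters) overlapped an AP-1 site TGANTCA (6.75%). No member held the ETS-IRF composite element (2.30% of promoters) or TATAAA (12.4%) in this window. The window ends well before the coding start (222 bases in Mt1, 230 in Mt2 and 193 in Mt3). The stretches of transcript before the coding start held 4, 3 and 3 matches to the metal response core and 1 TATAAA each. Counts of the core thus set Mt3 apart in the 250 bases but not in the stretches that follow them. The windows may miss the proximal promoter, the part just before the start in use. They therefore do not show that Mt1 lacks further elements or that any member lacks a TATAAA.

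Within resting cDC1-like cells Mt3 was held by few cells. Of 1123 WT cells, 840 had no Mt3 UMI, 74 had at least 10, and 1 had 103. The 10% of cells with most Mt3 held 86.8% of its UMIs. Of 713 Mgl2DTR cells, 525 had none, 45 had at least 10 and the richest had 96, and the top 10% held 86.3%. Mt1 was spread more evenly in the same cells: 591 WT cells had none, 12 had at least 10, and the top 10% held 55.1% of UMIs.

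With every cell thinned to 2000 UMIs, Mt3 was found in 13.001% of WT resting cDC1-like cells (Clopper-Pearson 95% interval 11.1 to 15.1) and 12.1% of Mgl2DTR ones. The unthinned shares were 25.2% and 26.4%. The background for free RNA, read in T cell-like cells thinned alike, was 0.535% in WT and 0.968% in Mgl2DTR cells. Median depths before thinning were 13439 UMIs in WT resting cDC1-like cells and 3122.5 in WT T cell-like cells. At 4000 UMIs per cell the variance of Mt3 over its mean was 9.70 in WT and 9.65 in Mgl2DTR resting cDC1-like cells, position 11 of 6015 and 5 of 4731 genes ranked. The median gene had 1.04 in WT.

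**Figure D2:**
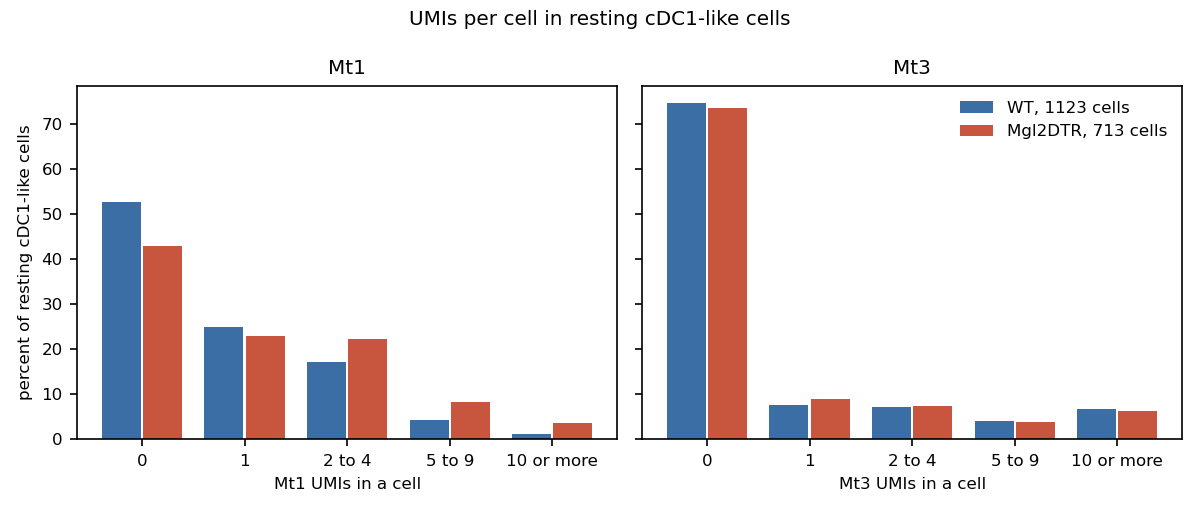
Percent of resting cDC1-like cells (vertical axis) by the number of Mt1 or Mt3 UMIs in the cell (horizontal axis), for 1123 WT and 713 Mgl2DTR cells. Mt3 is absent from 74.8% of WT cells and reaches 10 or more UMIs in 74 of them, while Mt1 is shifted upward in Mgl2DTR cells.

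Resting cDC1-like cells rich in Mt3 carried a recurring set of other transcripts. Cells with at least 5 Mt3 UMIs (120 WT and 72 Mgl2DTR) were set against cells with none (840 and 525). This contrast was chosen after the spread of Mt3 was seen, and it cuts a continuous range: 163 WT and 116 Mgl2DTR cells had 1 to 4 UMIs and were left out. Genes were ranked in WT cells and then read in Mgl2DTR cells, and they are given as a description. Calls were by size: a ratio past 1.5 in one direction, a 95% interval that stays on that side of 1, and 50 or more summed UMIs. In WT cells 403 of 8574 genes were called higher in Mt3-rich cells (4.7%) and 692 lower (8.07%). In Mgl2DTR cells 456 of 7561 were called higher (6.03%) and 705 lower (9.32%). Of 7554 genes measured in both genotypes, 208 were called higher in both and 247 lower in both.

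Epcam, an adhesion molecule of epithelium and of some dendritic cells, led the WT ranking with 198 CPM in Mt3-rich cells against 18.5 in cells without Mt3. In Mgl2DTR cells Epcam stood at 249 against 23.0 CPM. Cd207, which encodes langerin, stood at 386 against 63.8 CPM in WT and at 429 against 46.1 in Mgl2DTR cells. The genes for the junction proteins Cldn7 and F11r showed the same direction: Cldn7 at 56.9 against 4.96 CPM and F11r at 68.2 against 13.9 CPM in WT. The other leading genes were Tcea3 (WT ratio 10.5), Tm4sf5 (6.73), Slfn1 (4.42), Sult1a1 (4.71), Zmynd15 (3.91) and Gzma. Of these 10 genes, 9 were also higher in Mgl2DTR Mt3-rich cells, with ratios from 4.67 for Zmynd15 to 11.1 for Cldn7. Gzma, a granzyme of cytotoxic lymphocytes, was the exception: 41 of its 45 UMIs in WT Mt3-rich cells sat in 1 cell. The same 9 genes were called higher in Mt3-rich cells of the cDC1-like cluster with Mcm genes, with ratios from 4.79 to 15.5 in WT cells (25 rich, 300 without) and from 3.23 to 17.0 in Mgl2DTR cells (21 and 136).

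**Figure D3:**
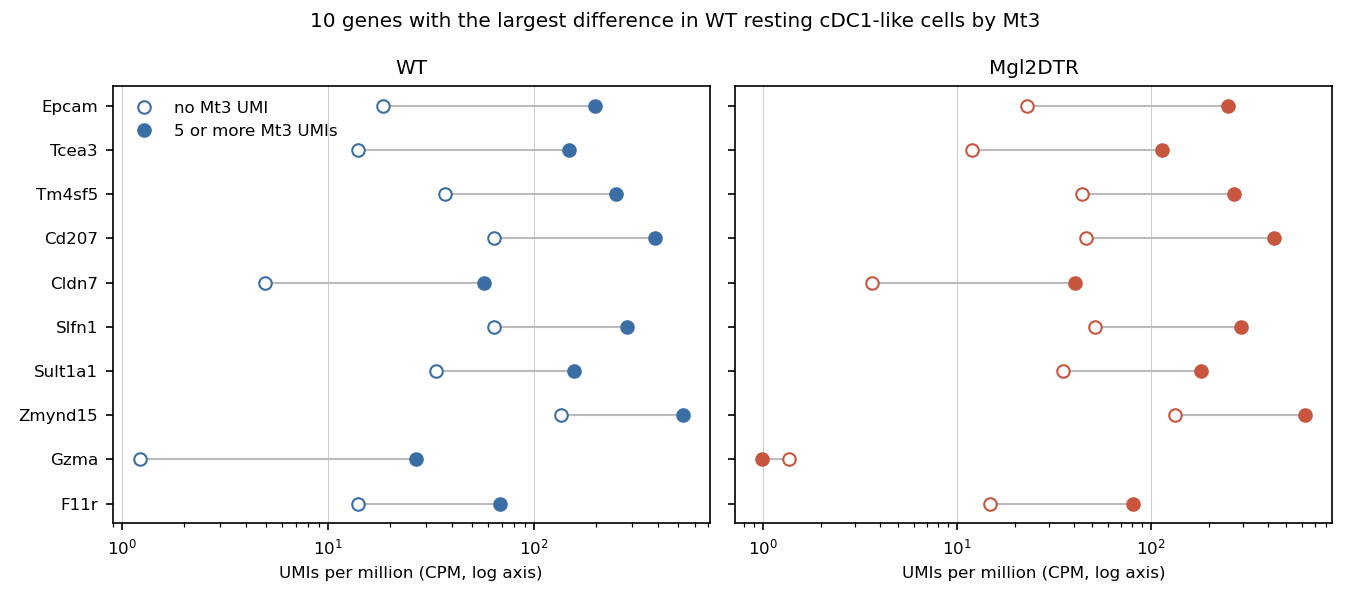
Levels of 10 genes in CPM (log axis) in resting cDC1-like cells with no Mt3 UMI (open points) and with 5 or more (filled points), in WT and Mgl2DTR cells. Genes are ordered by their difference in WT cells; all but Gzma lie in the same direction in both genotypes.

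Lower in Mt3-rich WT cells were Tlr3, the RNA sensor, at 12.5 against 85.5 CPM, Unc119 at 13.6 against 113, Plac8 at 85.4 against 301, Ckb, a creatine kinase, at 106 against 356, Cfp, the complement factor properdin, at 5.93 against 39.3, and Pdia5 at 8.90 against 50.1. The Mgl2DTR cells showed each of these 6 in the same direction, Tlr3 at 18.8 against 96.5 CPM and Cfp at 1.98 against 37.1. Tlr3 is thus a cDC1 marker that ran opposite to Mt3 within cDC1-like cells, although both were high in them as a whole. The remaining 4 of the 10 lowest WT genes were globins, which the erythroid list showed at 2.37 CPM in Mt3-rich and 347 in Mt3-free WT cells and at 1.98 against 1.63 CPM in Mgl2DTR cells.

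The median depth was 13662 UMIs in Mt3-rich and 13321 in Mt3-free WT cells. Called doublets made up 1.67% and 3.93% of them. The cDC1 marker list summed to 5755 CPM in Mt3-rich and 5256 in Mt3-free WT cells, with 1 of 12 members higher and 3 lower. The cDC2 list, which holds Epcam, summed to 323 against 101 CPM, with 3 of 5 measured members higher and Mmp12 and Clec4a4 at 0. The thymic epithelium list, 8 genes, summed to 10.1 against 5.74 CPM with Krt5, Psmb11 and Cldn4 at 0. The pDC list summed to 725 against 488 CPM, and the monocyte list to 235 against 457. In Mgl2DTR cells the cDC1 list summed to 5773 in Mt3-rich and 5786 CPM in Mt3-free cells, the cDC2 list to 347 against 76.9, the pDC list to 753 against 431, the monocyte list to 182 against 531 and the thymic epithelium list to 9.91 against 5.57. The activated DC list summed to 271 against 273 CPM in WT and to 356 against 190 in Mgl2DTR cells. The part of these lists in the result was not tested.

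The hashtag margin, the deposited score for the distance between the strongest and the next hashtag of a cell, moved with Mt3. Its median was 2.50 in Mt3-rich and 2.11 in Mt3-free WT cells, and 3.09 against 2.76 in Mgl2DTR cells. WT resting cDC1-like cells at or above their genotype's median margin held 220 CPM of Mt3 and those below it 42.9. In Mgl2DTR cells these values were 188 and 12.2 CPM. Among cells at or above that median alone, all 10 leading genes remained higher in Mt3-rich WT cells and 9 in Mgl2DTR cells. What the margin contributes to the Mt3 level was not tested.

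Between genotypes, Mt1 was called in 8 of 18 measured clusters, Mt2 in 2 of 6 and Mt3 in 6 of 9. Mt1 was measured, with at least 50 summed UMIs, in those 18 clusters and was called higher in Mgl2DTR cells in 7 and lower in 1. Over all gene and cluster pairs 4.38% were called higher and 3.99% lower, and 0.551% of 2904 genes measured in at least 18 clusters were called higher in 7 or more. Both Mt2 calls were lower, and Mt3 was called higher in 3 clusters and lower in 3. The clusters come from the same library and are not independent of each other.

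In resting cDC1-like cells Mt1 stood at 84.4 CPM in WT (1309 UMIs) and 134 CPM in Mgl2DTR (1328 UMIs). The ratio was 1.59 (95% interval 1.47 to 1.72) in a comparison where 3% of 9654 genes were called either way. With cells thinned to 2000 UMIs, 13.1% of WT cells and 20.6% of Mgl2DTR cells held Mt1, against 3.03% and 2.90% in T cell-like cells. Mt3 in the same cells had a ratio of 0.914 (0.858 to 0.974) and was not called. Mt2, with 26 and 27 UMIs, had a ratio of 1.63 with a wide interval (0.915 to 2.91) and was not called. Keeping only cells at or above the median margin of all cells ended the Mt1 call, at 1.34, and put Mt3 at 0.568. Of resting cDC1-like cells, that setting kept 45.0% in WT and 93.7% in Mgl2DTR. With each genotype's own median the ratios were 1.56 for Mt1 and 0.854 for Mt3.

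The Mt1 difference was largest where Mt3 was absent. In resting cDC1-like cells with no Mt3 UMI, Mt1 stood at 66.7 CPM in WT and 133 in Mgl2DTR, a ratio of 2.00 (1.82 to 2.20). In cells with at least 5 Mt3 UMIs it stood at 179 and 170 CPM, a ratio of 0.952 (0.785 to 1.15). These 2 intervals do not overlap, but they cover counting error only and not the uneven spread of Mt1 over cells. The difference between the ratios was not tested. In cells with 1 to 4 Mt3 UMIs the ratio was 1.12 (0.913 to 1.36). Cells with 1 Mt3 UMI stood at 75.8 CPM in WT and 124 in Mgl2DTR, and those with 2 to 4 at 133 and 105. Within WT cells Mt1 went from 66.7 CPM in cells without Mt3 to 194 in those with at least 10 UMIs of it, while in Mgl2DTR cells it was 133 and 206 with lower values between. At 4000 UMIs per cell, Mt3 was found in 25.2% of WT cells with Mt1 and 15.4% of those without, and in 18.4% and 17.1% in Mgl2DTR cells.

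**Figure D4:**
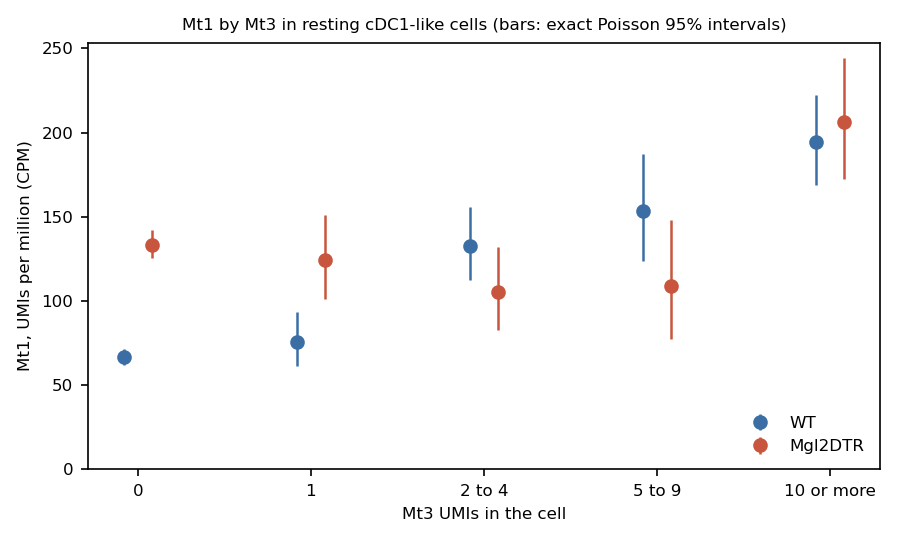
Level of Mt1 in CPM (vertical axis) in resting cDC1-like cells grouped by their number of Mt3 UMIs (horizontal axis), with exact Poisson 95% intervals. WT cells go from 66.7 to 194 CPM, and Mgl2DTR cells without Mt3 already stand at 133 CPM.

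Other transcripts differed between the genotypes in the resting cDC1-like cluster. The erythroid list summed to 257 CPM in WT and 1.52 in Mgl2DTR cells, with 4 of 5 genes lower. The T cell list summed to 157 and 124 CPM and the activated DC list to 282 and 223. Their part in the Mt1 result was not tested. Of the pathways known to act on metallothioneins, few genes were called. None of 15 measured metal sensing and zinc transport genes was called (median log2 ratio -0.19, against -0.01 over all genes measured). Mtf1, the sensor itself, stood at 14.6 and 15.4 CPM and the zinc exporter Slc30a1 at 5.09 and 4.45. None of 8 copper handling genes and none of 6 hypoxia genes was called. Of the IL-6 and STAT3 list 1 of 10 was called: Socs3, a feedback inhibitor of STAT3, at 9.54 and 19.5 CPM (ratio 2.05). Of the glucocorticoid list 1 of 10 was called (Dusp1, a phosphatase, 1.58), of the Nrf2 list 1 of 11 (heme oxygenase Hmox1, 1.87) and of the heat shock list 1 of 10 (Hsph1, 1.62).

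Of the 3 cDC1-like clusters with cell cycle genes, 2 had Mt1 and Mt3 both called higher. In the third, with histone genes, Mt1 stood at 54.6 and 63.4 CPM (ratio 1.16) and Mt3 at 51.2 and 71.3 (1.39), and neither was called. In cells with Mcm genes, Mt1 stood at 55.7 CPM in WT and 84.8 in Mgl2DTR (ratio 1.52) and Mt3 at 125 and 193 (ratio 1.55), where 3.35% of genes were called either way. The Mcm ratios of Mt1 fell to between 1.30 and 1.43 without called doublets, with either margin setting or when thinned, so this call sits at the threshold. The Mt3 ratio turned to 0.867 with the pooled margin median and lay between 1.06 and 1.37 with the other settings that ended the call. In mitotic cells Mt1 stood at 35.5 and 64.6 CPM (1.82) and Mt3 at 27.7 and 52.1 (1.88), where 4.26% of genes were called. Thinning left 36 and 18 Mt1 UMIs there and a ratio of 0.892 (0.477 to 1.61), and without the richest cell of each genotype Mt3 had 1.42. The T cell list summed to 395 CPM in WT and 185 in Mgl2DTR mitotic cells, and its part was not tested. Of 10 measured genes of the IL-6 and STAT3 list, the Mcm cluster had Socs3 higher (2.70) and Il6st lower (0.551). The mitotic cluster, also with 10 measured, had Socs3 (3.81) and Fos (1.59) higher and none lower.

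**Figure D5:**
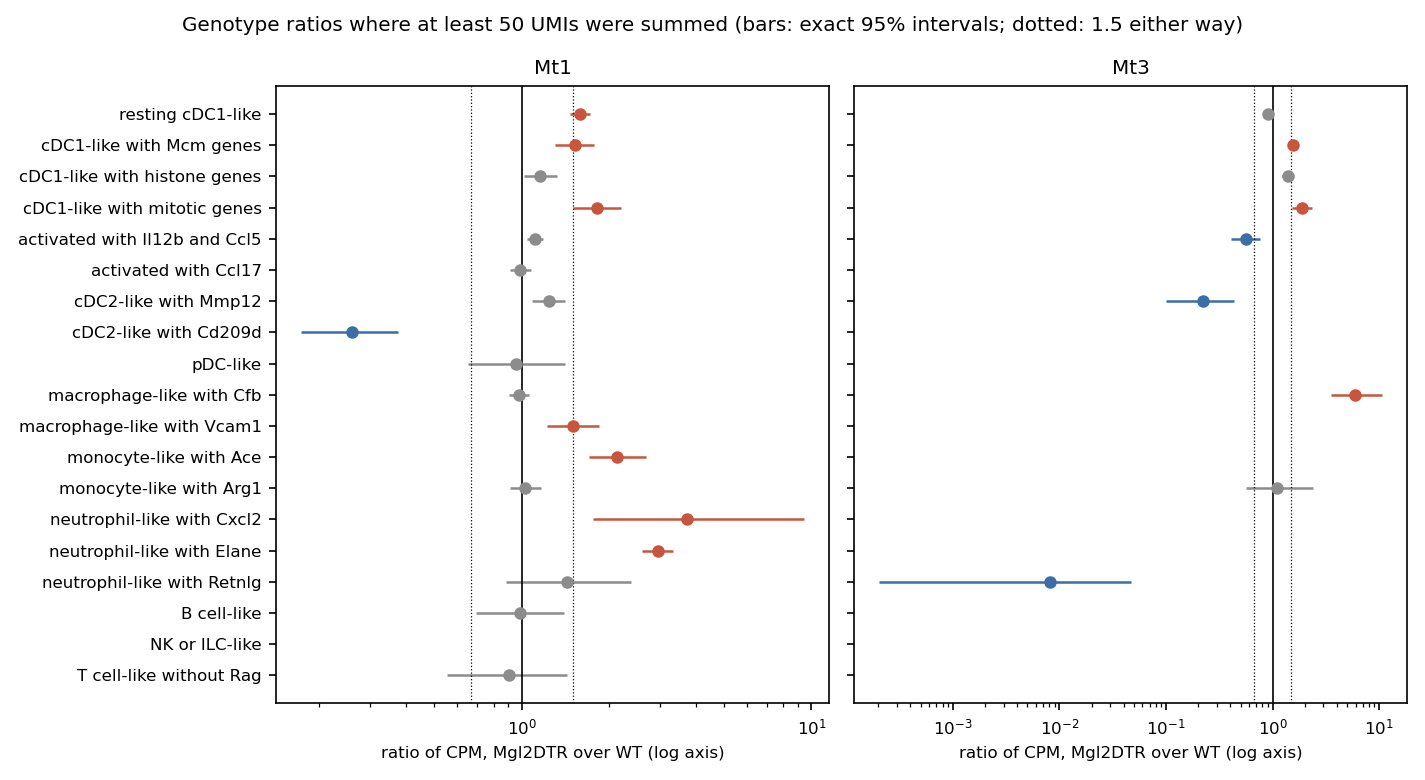
Ratio of CPM, Mgl2DTR over WT (log axes), for Mt1 and Mt3 in the clusters where at least 50 UMIs were summed; bars are exact 95% intervals and dotted lines mark 1.5 either way. Red points were called higher, blue points lower and grey points neither: Mt1 is higher in 7 clusters and lower in the cDC2-like cluster with Cd209d (0.260).

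The cDC2-like cluster with Cd209d, led by Cd209d, Cd209a and Mgl2, was the only compared cluster in which Mt1 was called lower. It held 472 WT and 113 Mgl2DTR cells, and Mgl2 stood there at 875 and 260 CPM. Mt1 was at 108 CPM in WT (541 UMIs) and 28.0 in Mgl2DTR (30 UMIs), a ratio of 0.260 (0.174 to 0.375), and Mt2 was at 12.6 and 2.80 CPM (63 and 3 UMIs, ratio 0.223). In this comparison 9.84% of genes were called either way. Mt1 was unevenly spread: the 10% of WT cells with most of it held 85.0% of its UMIs, and 1 cell held 69. In Mgl2DTR 12 cells held Mt1. Thinned shares with Mt1 were 8.96% (6.53 to 11.9) in WT and 3.57% (0.982 to 8.89) in Mgl2DTR, and these intervals overlap. Mt3 had 22 UMIs in WT and 0 in Mgl2DTR cells, too few to be measured. At the coarser clustering the Mt1 ratio of the matching, larger cluster, which also matched the cDC2-like cluster with Mmp12, was 0.942. The monocyte list summed to 4739 CPM in WT and 6715 in Mgl2DTR cells, the pDC list to 3772 and 5670 with 7 of 12 genes higher, and the activated DC list to 1303 and 852 with 8 of 13 lower. Their part in the result was not tested, and a loss of Mt1-bearing cells from the cluster and less Mt1 per cell cannot be told apart. Of 14 zinc genes 2 were called, both higher: the importer Slc39a14 (2.01) and the vesicle exporter Slc30a4 (1.56). None of 8 copper and none of 10 Nrf2 genes was called. The glucocorticoid list had Cebpd higher (1.86) and Klf9 lower (0.456), and the heat shock list had Hspa1a (0.242) and Hspa1b (0.387) lower with Hspa8 (1.59) and Hsph1 (1.56) higher. Among 9 measured genes of the IL-6 and STAT3 list, Il4ra (2.14) and Bcl3 (1.61) were higher and Il6st (0.619) lower.

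In the other cDC2-like cluster, with Mmp12, Mt1 stood at 151 and 188 CPM and was not called, while Mt3 stood at 24.3 and 5.43 (161 and 9 UMIs, ratio 0.223), where 7.53% of genes were called. Its 6 WT cells with at least 10 Mt3 UMIs held 5 to 9 of the 12 cDC1 markers. In activated cells with Il12b and Ccl5, Mt3 stood at 29.5 and 16.6 CPM (ratio 0.563), where 5.1% of genes were called. Averaging cells after scaling each to the same total gave 1.14, so that direction was not kept. Mt1 and Mt2 were not called in the activated clusters: Mt1 had ratios of 1.11 (1.04 to 1.19) and 0.991 (0.910 to 1.08), and Mt2 had 1.11 (0.944 to 1.30) and 0.839 (0.665 to 1.05).

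The largest Mt1 ratios were in neutrophil-like cells with Cxcl2 or Elane and in monocyte-like cells with Ace, but not all myeloid clusters were called. Mt1 was not called in monocyte-like cells with Arg1 (1.03, 0.908 to 1.17) or in macrophage-like cells with Cfb (0.979, 0.903 to 1.06). Neutrophil-like cells with Retnlg (1.43, 0.883 to 2.38) were not called either. In neutrophil-like cells with Elane, a protease gene of immature granulocytes, Mt1 stood at 130 CPM in 108 WT cells (307 UMIs) and 381 in 201 Mgl2DTR cells (2273 UMIs). The ratio was 2.94 (2.61 to 3.33), where 14.1% of genes were called, and it was 1.67 and 1.89 with the pooled and the own margin median. Thinned shares with Mt1 were 15.7% and 38.8%. Called doublets made up 66.7% and 61.7% of these cells, their median depths were 18577 and 28163 UMIs, and the cDC1 list summed to 779 and 383 CPM. Their part was not tested. Of 10 measured genes of the IL-6 and STAT3 list 2 were called there, both higher. They were the acute phase gene Saa3 (27.4, from 2 UMIs in WT and 138 in Mgl2DTR) and Bcl3 (2.18). None of 10 zinc and none of 7 copper genes was called.

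In monocyte-like cells with Ace, Mt1 stood at 88.3 CPM in WT (90 UMIs) and 188 in Mgl2DTR (662 UMIs), a ratio of 2.13 (1.70 to 2.68), where 12.9% of genes were called. The ratio was 12.1 and 6.21 with the pooled and the own margin median. The neutrophil list summed to 1458 CPM in WT and 16910 in Mgl2DTR cells, with 8 of 15 genes higher, and its part was not tested. Zinc genes went both ways, Slc30a5 higher (2.20) and Slc30a1 lower (0.486), as did the copper transporters Slc31a1 (1.73) and Slc31a2 (0.629). Of 11 measured genes of the IL-6 and STAT3 list 3 were called higher and 1 lower. Higher were Lcn2, which sequesters iron carriers (19.8), Il4ra (1.68) and Saa3 (0 UMIs in WT and 89 in Mgl2DTR). Il6ra was lower (0.665).

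The remaining calls rested on few cells or sat at the threshold. In neutrophil-like cells with Cxcl2, Mt1 had 7 UMIs in WT and 157 in Mgl2DTR (ratio 3.72), where 15.6% of genes were called, and 96 of them were in 1 cell. Without the richest cell of each genotype the ratio was 2.00 (0.812 to 6.38). In macrophage-like cells with Vcam1, Mt1 stood at 260 and 390 CPM (1.503), where 14.5% of genes were called, and 9 alternatives put it between 1.10 and 1.48. Called doublets made up 62.7% and 64% of these cells, the neutrophil list summed to 10552 CPM in WT and 2492 in Mgl2DTR, and the T cell list to 691 and 259. Their part was not tested. In macrophage-like cells with Cfb, Mt3 stood at 2.99 and 17.9 CPM (5.99), where 7.03% of genes were called. A single Mgl2DTR cell held 45 of its 51 UMIs, with 10 of 12 cDC1 markers, and was called a doublet. In neutrophil-like cells with Retnlg the Mt3 ratio of 0.00816, where 16.8% of genes were called, rested on the 1 WT cell with 80 UMIs described above. In monocyte-like cells with Arg1, Mt2 stood at 60.5 and 37.5 CPM (0.620), where 32.8% of genes were called, and it turned to 2.50 without cells that hold UMIs of other types' markers. In B cell-like cells Mt1 stood at 48.7 and 48.0 CPM, in NK or ILC-like cells at 16.6 and 15.7, and in pDC-like cells at 11.9 and 11.4, and it was not called in any of them.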

How the data were processed

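Gene expression and hashtags of 1 pool of WT and Mgl2DTR thymus cells were measured in 2 libraries. Deposited values are raw counts of UMIs for each gene in each cell. The submitters' processing notes name Seurat 4.0.4, Cell Ranger 6.0.0 and the build mm10. The gene annotation and the filters on cells are not given in the sources used here. A deposited table gives each cell's hashtag call and a score, the hashtag margin, whose scale is not stated, and 8 of its columns were not used. The 2 gene tables shared 0 barcodes. Genotype came from the hashtag call, and cells with 2 of the 3 hashtags (9829), the one named uncategorized included, or none (78) entered no comparison.

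Clustering used leidenalg 0.10.2, igraph 0.11.9 and scikit-learn 1.9.0 under Python 3.11.15 with scipy 1.17.1, numpy 2.4.6 and pandas 2.3.3. Each cell's counts were brought to a total of 10000 and log-transformed, and 2000 variable genes without Mt1, Mt2, Mt3 and Mgl2, 30 components, 20 neighbours and resolution 1 were used. A name needed at least 3 markers at 2 times the CPM of other cells and in 20% of cells. Clusters with at least 90% called doublets were left out (9). A doublet was called when 12 of 50 nearest neighbours carried 2 hashtags, which called 29.0% of WT and 30.7% of Mgl2DTR cells, and called cells stayed in the main values. No cell filter was added.

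UMIs were summed per cluster and genotype, with exact Poisson, conditional and Clopper-Pearson 95% intervals that cover counting error only. A gene was called by size at a ratio of 1.5 either way, its interval on that side of 1, with 50 summed UMIs. A gene at 0 in a genotype was given no substitute count, so its ratio was 0 or had no upper limit. The floor of 3 counts was only set beside the levels. On simulated counts for resting cDC1-like cells, 100 of 100 genes changed 2-fold were called, and 75 of 9453 unchanged ones. For cDC2-like cells with Cd209d these were 92 of 100 and 236 of 7378 (3.20%). The simulated counts held counting error only, without spread between cells or animals. These shares therefore do not describe genes as unevenly spread as Mt3 or Mt1. Figures used matplotlib 3.10.9.

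The genes, lists and most alternatives were chosen with earlier results of these data known. Named genes are the members and Mt4, the 5 most alike per member, the 10 leading cDC1-like genes, the 2 neighbouring genes on each side, and up to 4 called genes per list. The contrast by Mt3 content and its 10 leading genes each way were added after values were seen. Alternatives changed the scaling, the clustering, doublets, mixed cells, depth, hashtag margin, the richest cell and the count minimum.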

Additional observations from a re-analysis of the deposited data

Results flagged for a closer look

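Mt1 went in opposite directions between genotypes in different clusters, and these differences between clusters were not tested. Its ratio, Mgl2DTR over WT, was 1.59 in resting cDC1-like cells, 1.52 in cDC1-like cells with Mcm genes, 1.82 in mitotic cDC1-like cells, 1.503 in macrophage-like cells with Vcam1, 2.13 in monocyte-like cells with Ace, 3.72 in neutrophil-like cells with Cxcl2 and 2.94 in those with Elane. It was 0.260 in cDC2-like cells with Cd209d. Mt3 likewise was higher in cDC1-like cells with Mcm genes (1.55), mitotic cDC1-like cells (1.88) and macrophage-like cells with Cfb (5.99). It was lower in activated cells with Il12b and Ccl5 (0.563), cDC2-like cells with Mmp12 (0.223) and neutrophil-like cells with Retnlg (0.00816), again with no test of the difference between clusters. Several of these ratios rest on 1 cell. A single cell held 61.1% of the Mt1 UMIs in Mgl2DTR cells with Cxcl2. For Mt3, 1 called doublet held 88.2% in Mgl2DTR cells with Cfb and another 96.4% in WT cells with Retnlg. The direction in activated cells with Il12b and Ccl5 was not kept when scaled cells were averaged.

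Cells outside the comparisons also held the members. The 9829 cells with 2 hashtags held Mt1 at 171 CPM, Mt2 at 13.8 CPM and Mt3 at 48.9 CPM. The 78 cells with no hashtag held Mt1 at 568 CPM and Mt2 at 176 CPM.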

How the results depend on the processing

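Of the 352 recomputed ratios of Mt1, Mt2 and Mt3 over 33 gene and cluster pairs, 299 kept their call or their lack of one. A call was lost in 32 and gained in 14, and 7 ratios called in the main values turned. Ratios not called in the main values were not checked for direction. Margins at or above the median of all cells gave ratios of 1.34 (Mt1) and 0.568 (Mt3) in resting cDC1-like cells, 0.867 for Mt3 in the Mcm cluster, and 4 clusters with Mt1 higher. Thinning to 2000 UMIs also gave 4, and 0.892 for Mt1 in mitotic cells. The Leiden resolution of 0.5 gave 0 clusters with Mt1 lower. The cluster there that overlapped the Cd209d cluster most (1061 WT and 246 Mgl2DTR cells) was also the match of the Mmp12 cluster. Its Mt1 ratio was 0.942. The match of the Arg1 cluster (215 WT and 610 Mgl2DTR cells) was also that of the Ace cluster, and its Mt2 ratio was 15.4. These 2 ratios therefore do not describe the Cd209d or Arg1 cluster alone. Leaving out called doublets gave 2 clusters with Mt1 lower. Leaving out mixed cells gave 2 as well, with 2.50 for Mt2 in the Arg1 cluster and 0.399 for Mt3 in the Cfb cluster. Keeping the members among the variable genes gave 0 for the latter. Averaging scaled cells gave 1.14 for Mt3 in activated cells with Il12b and Ccl5. The WT level of Mt3 in resting cDC1-like cells was 177 CPM with the members kept and with averaging, and 163 without the richest cell. It was 155 in the match at resolution 0.5, which was also the match of the Mcm cluster. The share of these cells with Mt3 was 25.2% unthinned and 17.4% at 4000 UMIs. Without a count minimum 226 genes were called higher there, against 149 with it. Among list genes, thinning turned Ccs in the Mcm cluster (1.25) and Slc2a1 in the Elane cluster (0.716). For the Cd209d cluster, resolution 0.5 turned Slc30a4 (0.974, in the larger match) and the pooled margin turned Il4ra (0.884). In the Ace cluster the pooled and own margin medians gave 0.852 and 0.879 for Slc30a5 and 1.17 and 1.04 for Klf9, and the own median gave 1.22 for Hspa1b. Gclc in the Elane cluster was 1.42 without doublets and 1.16 without mixed cells. Gzma was at a ratio of 0 by Mt3 content in the WT Mcm cluster. The causes were not tested. The own margin median, the omission of clusters rich in called doublets, the 19 compared clusters for pattern likeness and the alternatives by Mt3 content were chosen after seeing the data. No paired analysis was possible because both genotypes were in 1 pooled library and the labels number no replicates.

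With 1 hashtagged pool and no labelled animals, differences between animals, staining or sorting cannot be told apart from genotype. Several low values rest on few cells: 1 cell held 49.1% of Mt3 UMIs in Mgl2DTR mitotic cDC1-like cells, against 13.4% in WT activated cells with Il12b and Ccl5 and 11.2% in WT cDC2-like cells with Mmp12.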

Other observations

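A cluster of 23 cells (9 WT and 14 Mgl2DTR), too few to be compared and all called doublets, was led by Dcn, Mgp, Col3a1, Sparc and Col1a2, genes of the extracellular matrix. Mt1 reached 2523 CPM in it (831 UMIs in 18 cells, of which 275 were in 1 cell) and Mt2 reached 826 CPM (272 UMIs in 15 cells), and Mt3 had 0 UMIs. Both values lie above those of every compared cluster. The fibroblast marker list summed to 13280 CPM there and to between 1.2 and 1.3 CPM in resting cDC1-like cells of either genotype.

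Genes higher in Mt3-rich resting cDC1-like cells of both genotypes, beyond the 10 leading ones, included the integrin Itgae, which is on the cDC1 marker list. The interferon-induced Irf7, Rsad2 and Usp18 and the zinc transporter Slc30a4 were also among them. Lower in both were Pdia4, Hyou1, Manf, Creld2 and Hsp90b1, which act in protein folding of the endoplasmic reticulum, and the cDC1 markers Tlr3, Gcsam and Cd24a. These genes were picked after their calls were seen and were not tested as groups. Cells with no hashtag were shallow, at a median of 1421 UMIs, and their 2 Mt3 UMIs lie under the floor of 3 counts.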
